A study of Mus musculus with 24 samples.

Results

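Small nucleolar RNAs (snoRNAs) were described in cerebral cortex and whole blood of neonatal mice after gestational exposure to traffic-related nano-size particulate matter (nPM). The set held the 61 genes annotated as snoRNA that had 10 or more counts in every one of the 12 cortex libraries, out of 1508 snoRNA genes among 48709 genes in the count table. A total of 575 snoRNA genes had a count in at least 1 cortex library. Just inside the limit were AF357341, with 10 to 25 counts, and AF357428, with 10 to 32 counts, and just outside were Gm22362, with 9 to 29 counts, and Gm23736, with 9 to 32 counts. Because the genes were chosen by their cortex counts, cortex levels and the contrast of cortex with blood are given as description.

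The study asked whether exposure of the dam alters the transcriptome of both tissues in her offspring. Pregnant C57BL/6J mice, as labelled (C57BL/6NJ in the study's methods), breathed re-aerosolized nPM collected beside a freeway or filtered air, for 5 hours on 3 days of each week from gestational day 2 until birth. The labels give the concentration as 300 mg/m3, and the methods give it in µg/m3. Their offspring were killed at 3 to 5 days of age by the labels and at day 5 by the methods, and neither arm carried a transgene or any other treatment. Each tissue had 12 libraries, 3 for each combination of sex (female, male) and exposure (control, nPM). The methods take the 3 neonates of each sex and exposure from different litters. Whether a male and a female of the same arm shared a litter is not stated.

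Cortex libraries held 22301409 to 33804371 counts on genes, and blood libraries other than V2 held 13595647 to 21895536. Neuronal markers summed to 6658 to 8013 CPM (counts scaled to library size) in cortex, and globin transcripts took 66.2 to 76.8% of blood counts. Library V2, a control female blood library, stood apart: globin transcripts took 50.1% of its counts, 22461 genes had a count against 13254 to 17273 in the other blood libraries, and cell cycle markers reached 655 CPM. The blood fits therefore used 11 libraries, with 2 control females. V5, an nPM male blood library, had neuronal markers at 32.6 CPM, against 1.33 to 10.97 CPM in the other blood libraries of the fit. In V14, a control male cortex library, choroid plexus markers summed to 28.4 CPM, against 231 to 502 CPM in the other cortex libraries.

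SnoRNAs are short nuclear RNAs that are mostly trimmed from introns of host genes and work as guides inside ribonucleoprotein particles. The C/D box RNAs (Snord symbols) base-pair with ribosomal or other RNA and direct 2′-O-methylation by fibrillarin, and the H/ACA RNAs (Snora symbols) direct pseudouridylation by dyskerin. A few take part in cleavage of the ribosomal RNA precursor instead of, or besides, modifying it. In brain, 2 imprinted gene clusters carry long tandem sets of C/D box snoRNAs with no known ribosomal target: the paternally expressed Snrpn to Ube3a region with its host transcript Snhg14, and the maternally expressed Meg3, Rian and Mirg region.

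Of the 61 genes, 7 had a Snord symbol, 6 had a Snora symbol and 48 had a clone-type symbol (mostly Gm followed by a number) that gives no class. The transcripts of all 61 were therefore read in Gencode M21 (GRCm38, the same assembly as mm10) for box letters: TGATGA starting in the first 60 bases together with CTGA starting in the last 20 bases for the C and D boxes, or ACA followed by 2 or 3 bases at the 3′ end for the H/ACA tail. These letters called 26 genes C/D (42.6%, against 22.1% of 1507 annotated snoRNA transcripts) and 30 genes H/ACA (49.2%, against 42.7%), and 5 had neither. All 7 Snord symbols fell in the first group and all 6 Snora symbols in the second. Genes with both sets of letters, 3 in number, were placed with C/D. A letter match is a description of the transcript and shows no binding.

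The RNAs on which the results turn are printed here 5′ to 3′ as DNA letters, with the TGATGA and CTGA letters or the final ACA in capitals. The first 3 were among the 5 genes with the most cortex counts: Snora73b (U17, which acts in ribosomal RNA precursor cleavage) at chr4:132352322-132352526 on the minus strand, its relative Gm26448 at chr9:120129351-120129553 on the plus strand, 87.8% identical to it, and the C/D RNA Snord17 at chr2:144265979-144266216 on the minus strand.
Snora73b: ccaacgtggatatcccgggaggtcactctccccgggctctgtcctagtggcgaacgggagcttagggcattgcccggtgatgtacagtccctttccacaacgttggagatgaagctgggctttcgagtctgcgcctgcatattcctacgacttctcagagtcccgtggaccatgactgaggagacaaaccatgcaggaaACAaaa
Gm26448: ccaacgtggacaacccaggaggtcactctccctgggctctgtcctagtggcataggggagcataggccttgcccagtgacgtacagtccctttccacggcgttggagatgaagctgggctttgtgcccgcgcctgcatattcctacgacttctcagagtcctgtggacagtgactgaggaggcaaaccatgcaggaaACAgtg
Snord17: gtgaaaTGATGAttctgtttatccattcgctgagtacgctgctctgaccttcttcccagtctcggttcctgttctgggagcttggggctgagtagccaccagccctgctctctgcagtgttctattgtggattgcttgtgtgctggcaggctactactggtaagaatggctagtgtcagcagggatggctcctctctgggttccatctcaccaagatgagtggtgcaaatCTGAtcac

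The Snhg14 array contributed 8 of the genes, on the minus strand of chromosome 7 inside introns of Snhg14. Of these, 3 are shown because they are the array's most abundant gene (Gm24966, chr7:59344073-59344151) and the genes with its 2 smallest p-values in females (Gm26498, chr7:59386081-59386159, and Gm25089, chr7:59555854-59555932).
Gm24966: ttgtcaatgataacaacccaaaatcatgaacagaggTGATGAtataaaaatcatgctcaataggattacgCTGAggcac
Gm26498: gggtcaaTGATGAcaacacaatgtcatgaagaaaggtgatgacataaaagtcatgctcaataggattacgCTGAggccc
Gm25089: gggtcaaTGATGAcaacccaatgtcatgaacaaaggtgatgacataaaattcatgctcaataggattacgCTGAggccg
All 8 array genes held a run of 16 to 18 bases whose exact complement occurs in transcripts of Htr2c, the serotonin receptor 2C gene; in the 3 shown it was atgctcaataggattacg, and its complement was in 2 of 7 annotated Htr2c transcripts. Outside the array the longest such run was 14 bases and the median was 10. The shared 16 bases occurred in 8.43% of the 1507 annotated snoRNA transcripts. Of the 8, 6 had up to 132 other annotated snoRNAs at 90% identity or more, so reads of these copies may have been assigned to one another or left out, and single array genes are uncertain.

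Between Meg3 and Mirg on the plus strand of chromosome 12 lay 9 genes, and the 4 shown had the smallest p-values for exposure in cortex: AF357428 (chr12:109679945-109680013), DQ267102 (chr12:109656345-109656416), Gm23600 (chr12:109643748-109643818) and Gm22205 (chr12:109688055-109688125). DQ267102 and Gm23600 sit in introns of Rian, and the other 2 have no annotated host. Their closest annotated relatives were 65.3 to 83.6% identical. Gm23600 held TGATGA but no CTGA in its last 20 bases, and Gm22205 held neither in the windows used; letters are capitalized only where both were found.
AF357428: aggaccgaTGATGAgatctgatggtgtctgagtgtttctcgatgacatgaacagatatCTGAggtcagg
DQ267102: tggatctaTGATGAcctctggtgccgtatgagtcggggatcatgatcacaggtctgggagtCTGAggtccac
Gm23600: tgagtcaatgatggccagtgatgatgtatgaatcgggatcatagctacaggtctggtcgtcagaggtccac
Gm22205: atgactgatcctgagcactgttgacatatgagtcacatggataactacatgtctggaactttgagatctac

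The last 2 sequences belong to the genes with the smallest p for a difference of the exposure contrast between the sexes: Gm25117 in an intron of Nap1l1 (chr10:111481493-111481636, plus strand), and Gm22154 in an intron of Pabpc4 (chr4:123293152-123293282, plus strand). Gm22154 was 96.9% identical to Gm25788 in the same host, and Gm25117 was 92.4% identical to Gm25291.
Gm25117: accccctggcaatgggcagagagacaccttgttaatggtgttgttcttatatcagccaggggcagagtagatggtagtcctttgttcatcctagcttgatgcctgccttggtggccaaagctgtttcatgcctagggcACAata
Gm22154: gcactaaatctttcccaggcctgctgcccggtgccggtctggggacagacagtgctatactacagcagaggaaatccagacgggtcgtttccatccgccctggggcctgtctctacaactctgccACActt

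The 61 genes were 68 to 246 bases long (median 131). In Gencode M21, 41 lay in an intron of a host gene, 9 overlapped a host exon and 11 had no host, and the 50 hosted genes shared 33 hosts. Of the hosted genes, 5 lay within Taf1d on chromosome 9, whose product is a subunit of an RNA polymerase I factor. In all, 21 had another annotated snoRNA at 90% identity or more. Strand use in counting is not given in the sources used here, and 4 genes (Snora78, Snora57, Snora73b and Snora23) overlap a gene on the opposite strand.

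In cortex the 61 genes together took 0.0213 to 0.0322% of the counts on genes. Snora73b alone held 19.4% of the set's cortex counts, and it, Gm24336, Snord17, Gm25117 and Gm26448 together held 48.0%. Per kilobase of gene length, the mean level ran from 4.82 TMM-scaled CPM per kb for Gm26165 to 240 for Snora73b, with a median of 15.5. Gm24336, in an intron of Cwf19l1, followed at 152, then Gm25117 at 108, Gm24339 at 88.7 and Snord17 at 85.6. The median level of genes with C/D letters was 14.99 CPM per kb and that of genes with the ACA tail was 15.7. The pre-ribosomal RNA processing factors Snord118 (U8) and Snord13 (U13) stood at 19.7 and 10.3. In the imprinted clusters the median was 11.9 on chromosome 7 and 24.5 on chromosome 12.

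Levels relative to the host gene varied widely. Per kilobase, 19 of 50 hosted genes exceeded their host and 31 did not, with a median ratio of 0.771. Snora73b exceeded its noncoding host Snhg3 by 48.3 times and Gm24336 exceeded Cwf19l1 by 36.6 times. Gm26448, in an intron of the ribosomal protein gene Rpsa, reached 0.168 times its level. Gm24044, which overlaps an exon of the same host, reached 0.0262 times. How reads that overlap both a snoRNA and a host exon were assigned was not tested. Reads of the host precursor that fall on an intronic snoRNA are counted with it, and their share was not tested.

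**Figure D1:**
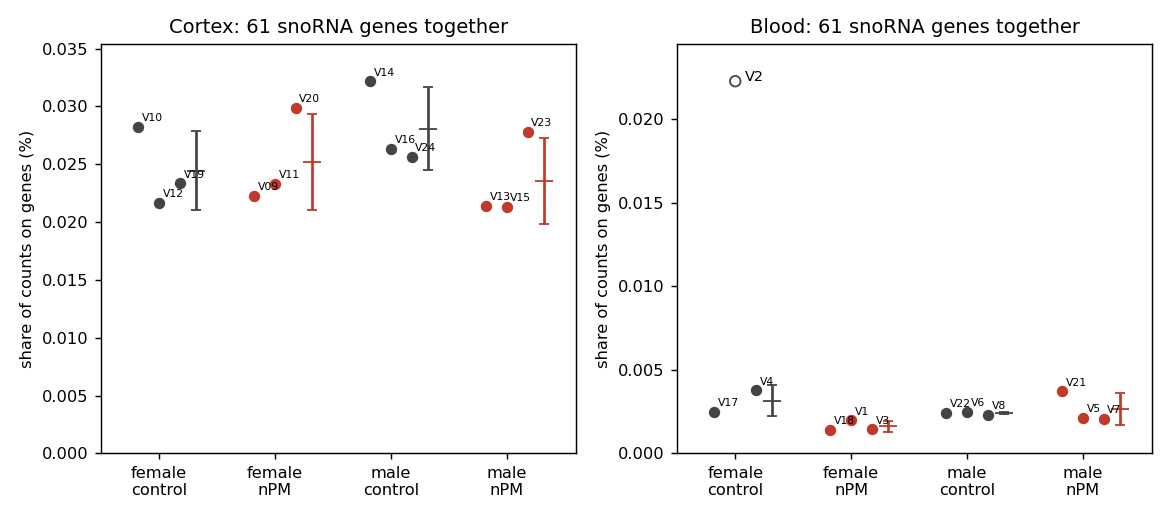
Share of all counts on genes (%) taken by the 61 snoRNA genes, by sex and exposure, in cortex (left) and blood (right). Each point is a library with its label, bars give mean ± SD, and V2 (open circle) is left out of mean and SD. Cortex libraries lie between 0.0213 and 0.0322%, blood libraries other than V2 between 0.0014 and 0.0038%, and V2 at 0.0223%.

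The plot of shares by library shows that the summed share did not separate the exposure groups in cortex. Control cortex libraries ranged from 0.0217 to 0.0322% and nPM cortex libraries from 0.0213 to 0.0299%. In each combination of sex and exposure, 1 library lay above the other 2: V10 (control female, 0.0282%), V14 (control male, 0.0322%), V20 (nPM female, 0.0299%) and V23 (nPM male, 0.0278%). These libraries also had the highest share of small nuclear RNA genes in their group, at 0.0922, 0.105, 0.0918 and 0.0865%, against 0.0620 to 0.0829% in the other 8. The part of this in the results below was not tested. In bulk tissue, fewer cells of a type and less RNA per cell cannot be told apart.

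The first comparison asked which snoRNAs differed between nPM and control cortex with both sexes together, adjusting for sex and RNA integrity number (RIN). All 61 genes were tested among 20857 genes. None passed an adjusted p of 0.05 in edgeR's quasi-likelihood test, while 0.0144% of all genes did. At an unadjusted p under 0.05 the set held 4 genes (6.56%, against 5.67% of all genes), and all 4 were lower with nPM (2.94% of all genes were lower at that limit). A log2 fold change below 0 was found for 44 of the 61, against 51.1% of all genes, and the median was −0.14, against −0.00 over all genes. No snoRNA had nPM and control libraries that did not overlap, against 0.0671% of all genes with nPM wholly lower and 0.129% wholly higher.

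The 4 genes at the smallest p all belonged to the chromosome 12 cluster. AF357428 ranged from 0.382 to 1.17 TMM-scaled CPM in controls (median 0.789, n = 6) and from 0.330 to 0.644 in nPM (median 0.351, n = 6). Its groups overlapped, with controls V16 and V24 below 2 of the nPM libraries, and its counts were low, 10 to 32 in a library. The log2 fold change was −0.79 (SE 0.31), with an unadjusted p = 0.0207 and an adjusted p = 0.853 in edgeR.

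DQ267102 ranged from 2.09 to 3.46 CPM in controls (median 2.91) and from 1.66 to 2.85 in nPM (median 2.28). All controls but V24, the lowest, lay above 5 of the 6 nPM libraries. The log2 fold change was −0.37 (SE 0.16), with unadjusted p = 0.0332 and adjusted p = 0.862 in edgeR. Gm22205 ranged from 1.17 to 2.33 CPM in controls (median 1.93) and from 1.09 to 1.64 in nPM (median 1.34), and V24 was again the lowest control. Its log2 fold change was −0.44 (SE 0.19), with unadjusted p = 0.0367 and adjusted p = 0.862 in edgeR.

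Gm23600, the most abundant gene of the cluster, ranged from 3.57 to 5.37 CPM in controls (median 4.87) and from 2.82 to 5.43 in nPM (median 3.73). The highest of all 12 libraries was the nPM female V20, so the groups overlapped over their whole control range. The log2 fold change was −0.31 (SE 0.14), with unadjusted p = 0.0361 and adjusted p = 0.862 in edgeR. Two-sided exact permutation tests without covariates gave p = 0.0368 for AF357428, 0.0455 for DQ267102, 0.0455 for Gm22205 and 0.102 for Gm23600.

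Of the 9 cluster genes, 8 had a log2 fold change below 0, with a median of −0.27. The exception was Gm23787, at 0.02 (SE 0.17), and Gm25856 stood at −0.06 (SE 0.22). Rian, the maternally expressed host of 3 of these genes, had a log2 fold change of −0.08, and Mirg, which hosts none of them, stood at −0.23 (SE 0.09, unadjusted p = 0.0222 in edgeR). Values within each sequencing lane given in the labels differed. Among the 8 cortex libraries of lane 2 the log2 difference was −1.002 for AF357428, −0.47 for DQ267102, −0.54 for Gm23600 and −0.52 for Gm22205. Among the 4 libraries of lane 3 these were −0.09, −0.12, 0.13 and −0.22. Leaving out V14 left 0 of the 61 at an unadjusted p under 0.05, against 5.16% of all genes. Leaving out V24 gave 8, against 8.88% of all genes. The median ran from −0.19 without V23 to −0.04 without V13, and the number below 0 from 52 to 38 without the same libraries. Of the 4 genes, limma voom kept 2 at that limit.

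**Figure D2:**
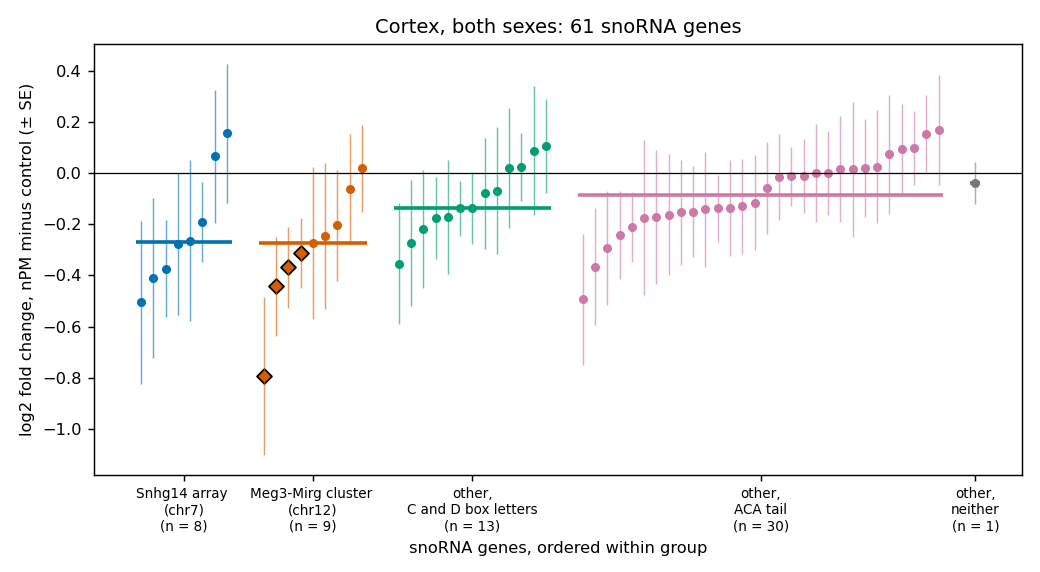
Log2 fold change of each of the 61 snoRNA genes in cortex, nPM minus control, both sexes together (y axis, ± SE), ordered within 5 groups along the x axis. Diamonds mark the 4 genes at an unadjusted p under 0.05, all in the Meg3-Mirg cluster, and thick lines are group medians (−0.27 in both imprinted clusters).

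By class, none of 7 Snord and none of 6 Snora genes had an unadjusted p under 0.05. The median log2 fold change was −0.08 for Snord and 0.01 for Snora symbols. By box letters the medians were −0.18 for 26 C/D genes and −0.09 for 30 H/ACA genes, and the C/D group includes most of both imprinted clusters. The plot of cortex fold changes shows that the H/ACA genes lay from −0.49 to 0.17 around their median of −0.09. The chromosome 7 array had a median of −0.27 with 6 of 8 genes below 0 and none at an unadjusted p under 0.05; Gm26498 came nearest, at −0.37 (SE 0.19, unadjusted p = 0.0669 in edgeR). Snora73b stood at −0.14 (SE 0.13), Snord17 at −0.14 (SE 0.11), Snord118 at 0.02 (SE 0.23) and Snord13 at −0.35 (SE 0.24).

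The proteins that carry snoRNAs showed no call in this comparison. Of the 4 core proteins of C/D particles (Fbl, Nop56, Nop58 and Snu13) and the 4 of H/ACA particles (Dkc1, Nop10, Nhp2 and Gar1), 0 had an unadjusted p under 0.05, with medians of 0.04 and 0.03. The same held for 15 assembly factors (median 0.03) and for the 33 host genes (median 0.02, with 14 below 0, against 51.1% of all genes). The snoRNA was more negative than its host in 39 of 50 pairs. These pairs share the 33 hosts, with 8 of them in Snhg14, so they are not independent. This count has no counterpart over all genes and was not tested. Of 18 noncoding transcripts tested from a list of snoRNA hosts and cluster transcripts, Meg3 and Mirg included, 3 were lower at that limit and 0 higher. Of the 155 other snoRNA genes tested, 8 were lower and 0 higher, with a median of −0.13. Of all genes, 2.94% were lower at that limit.

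The second comparison asked whether the exposure contrast differed between female and male cortex, from a fit with an exposure-by-sex term. No snoRNA passed an adjusted p of 0.05 in females, in males or in the term itself, as for 0% of all genes in each. In females, 6 of 61 had an unadjusted p under 0.05 (9.84%, against 11.8% of all genes), 5 lower (6.69% of all genes) and 1 higher (5.08%). In males it was 7 of 61 (11.5%, against 4.56%), 6 lower (2.34% of all genes) and 1 higher (2.22%). The difference between the sexes itself, male minus female, had an unadjusted p under 0.05 for 10 of 61 (16.4%, against 9.68% of all genes), 2 above 0 (5.00% of all genes) and 8 below (4.68%). Leaving out V11, an nPM female, lowered the count in females to 1, against 6.9% of all genes. Leaving out V19, a control female, lowered it to 2, against 9.27% of all genes. Leaving out V23, an nPM male, raised the count to 24 in males (against 5.35% of all genes) and to 20 for the difference (against 6.52%). Leaving out V20, an nPM female, lowered the count for the difference to 4, against 8.65% of all genes.

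**Figure D3:**
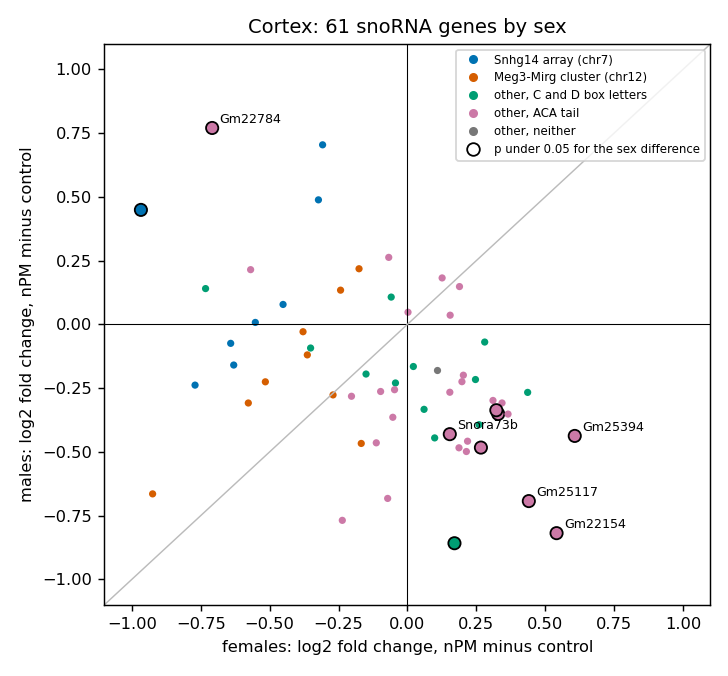
Log2 fold change of the 61 snoRNA genes in female cortex (x axis) and male cortex (y axis), nPM minus control, from 1 fit. Larger ringed points mark the 10 genes at an unadjusted p under 0.05 for the difference between the sexes, and the grey diagonal is equal change. Genes of the Snhg14 array lie left of 0 for females, and most genes with an ACA tail lie at the lower right.

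The plot of female against male fold changes shows the groups in colour. Of all genes, 49.7% were below 0 in females and 50.8% in males, and the difference was above 0 for 49.7% and below 0 for 50.3%. All 8 genes of the Snhg14 array were below 0 in females, with a median of −0.59, whereas in males the median was 0.04, and the difference between the sexes was above 0 for all 8 (median 0.56). All 9 genes of the chromosome 12 cluster were below 0 in females (median −0.36), and in males the median was −0.23. The 30 genes with an ACA tail had a median of 0.17 in females and −0.32 in males, and the difference was below 0 for 25 of the 30 (median −0.48). Female groups did not overlap for 12 genes, 11 with nPM lower (18.03%, against 11.5% of all genes) and 1 with nPM higher (1.64%, against 10.1%). The 11 included 5 of the array (Gm24966, Gm25648, Gm26498, Gm25175 and Gm25089) and 3 of the chromosome 12 cluster (DQ267102, AF357428 and Gm22205). In males, 3 genes were wholly lower with nPM (4.92%, against 4.88%) and 2 wholly higher (3.28%, against 4.29%).

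Gm25117 had the smallest p for the difference. In females it stood at 10.2, 10.3 and 16.5 CPM in controls and at 12.6, 13.04 and 21.3 in nPM. In males it stood at 15.8, 22.5 and 23.03 in controls and at 11.9, 12.6 and 16.5 in nPM. Female groups overlapped and male groups overlapped at V16 and V23 only. The log2 fold change was 0.44 (SE 0.18) in females and −0.69 (SE 0.18) in males, and the difference was −1.13 (SE 0.26), with unadjusted p = 0.000606 and adjusted p = 0.303 in edgeR.

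Gm22154 in Pabpc4 followed. In females it stood at 1.43, 1.44 and 3.28 CPM in controls and at 2.11, 2.28 and 3.47 in nPM, and in males at 3.00, 3.54 and 3.82 in controls and at 1.58, 2.38 and 2.67 in nPM. Male groups did not overlap and female groups did. The difference was −1.36 (SE 0.36, unadjusted p = 0.0021 and adjusted p = 0.334 in edgeR).

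Gm22784, in an intron of Nbea, took the opposite direction. In females it stood at 0.802, 0.927 and 1.12 CPM in controls and at 0.535, 0.574 and 0.702 in nPM, and in males at 0.474, 0.523 and 0.605 in controls and at 0.759, 0.822 and 0.998 in nPM. Neither sex had overlapping groups, on 12 to 33 counts in a library. The difference was 1.48 (SE 0.41), with unadjusted p = 0.00303 and adjusted p = 0.36 in edgeR.

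Snora73b showed a smaller difference of −0.58 (SE 0.23, unadjusted p = 0.022 in edgeR), with −0.43 (SE 0.16) in males, and the difference was −0.89 without V23. Control males stood at 49.0, 56.0 and 70.8 CPM, and nPM males at 37.8, 40.6 and 55.1. Gm25394 in Iars differed by −1.04 (SE 0.41), by −1.63 without V23 and by −0.64 without V20, and Snord13 by −1.03 (SE 0.45), the latter with −0.86 (SE 0.30, unadjusted p = 0.0127) in males. In the array, Gm25089 had the smallest p, with a difference of 1.42 (SE 0.56, unadjusted p = 0.0243 in edgeR).

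**Figure D4:**
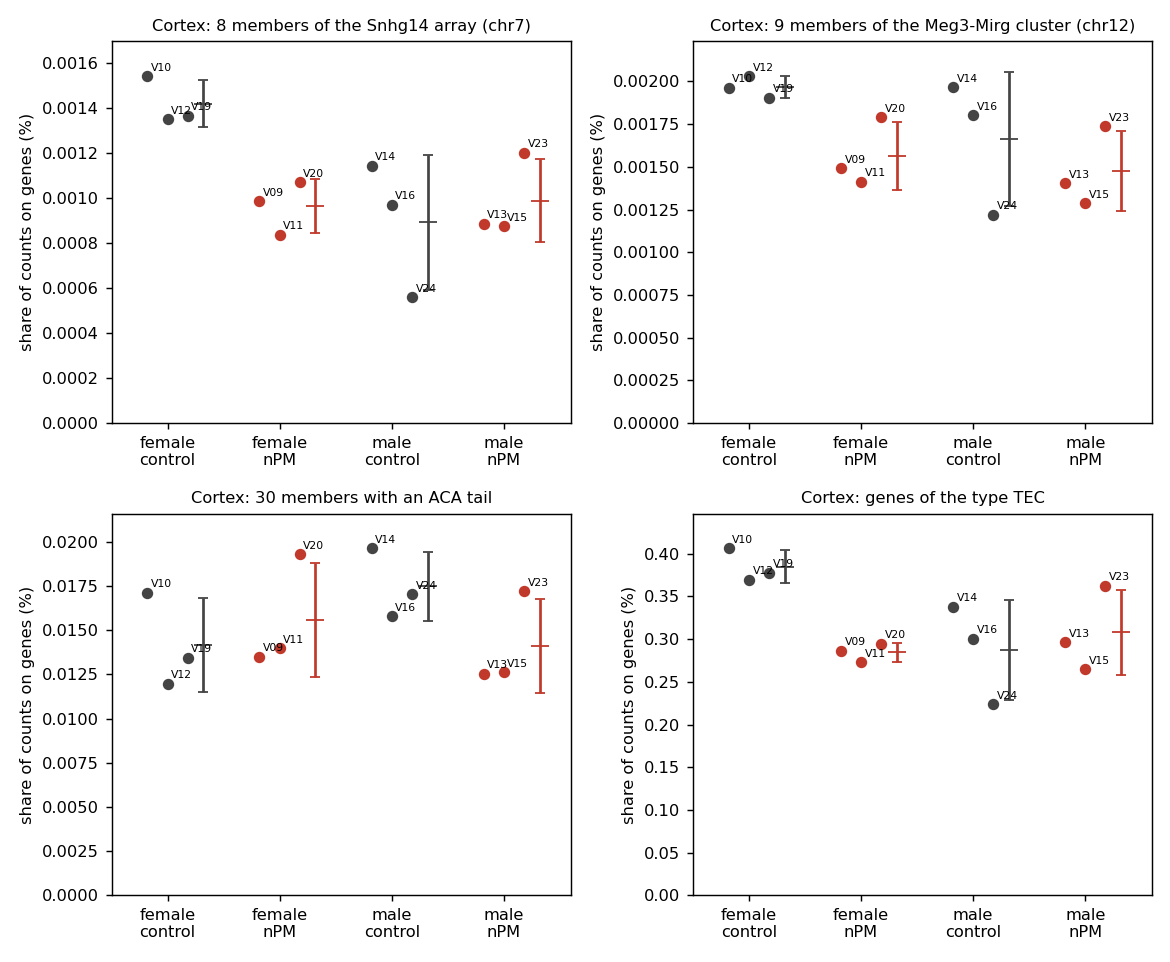
Share of counts on genes (%) in each of the 12 cortex libraries, by sex and exposure, for the Snhg14 array, the Meg3-Mirg cluster, the 30 genes with an ACA tail, and all genes of the annotation type TEC. Points are libraries and bars are mean ± SD (n = 3). For the array the 3 control females (0.00135 to 0.00154%) lie above all other libraries, and V24 (0.000561%) is the lowest.

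Summed over the array, control females held 0.00135 to 0.00154% of counts and nPM females 0.000838 to 0.00107%, without overlap. Control males spanned 0.000561 to 0.00115% and nPM males 0.000876 to 0.0012%, and these overlapped. For the chromosome 12 cluster the same order held in females, 0.0019 to 0.00203% against 0.00141 to 0.00179%. The plot of these shares by library places them beside genes of the type TEC, a class of transcript models that await experimental evidence: 0.369 to 0.406% in control females, 0.273 to 0.294% in nPM females, 0.224 to 0.338% in control males and 0.264 to 0.363% in nPM males. Genes of the type sense_intronic, models inside introns of coding genes on the same strand, had the same order, 0.0506 to 0.0542% in control females against 0.0403 to 0.0445% in nPM females, with 0.0347% in V24.

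The long noncoding transcripts of the clusters were on the same side in females. The host Snhg14 stood at −0.35 (SE 0.12, unadjusted p = 0.0122 in edgeR) and the host Rian at −0.15 (SE 0.08, unadjusted p = 0.0749). Of their neighbours that host none of the genes, Meg3 stood at −0.49 (SE 0.17, unadjusted p = 0.0123) and Mirg at −0.43 (SE 0.11, unadjusted p = 0.00135), none past adjustment. Of the same 18 noncoding transcripts, 8 were lower in females at an unadjusted p under 0.05 and 0 higher, against 6.69% and 5.08% of all genes. Of the 155 other snoRNA genes (median −0.40), 113 were below 0 in females, against 49.7% of all genes. At an unadjusted p under 0.05, 8 of the 155 were lower and 2 higher, against 6.69% and 5.08% of all genes. For the ACA-tail genes, small Cajal body RNA genes, which share the H/ACA or C/D fold, lay on the same side. Of 16 tested (median −0.30), 13 were below 0 in males, against 50.8% of all genes. At an unadjusted p under 0.05, 4 of the 16 were lower, against 2.34% of all genes. The part of these transcripts, and of the TEC and sense_intronic shares, in the sex difference was not tested.

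The third comparison asked which snoRNAs differed with exposure in blood, where far fewer could be tested. Of the 61, 11 had 0 counts over the 11 blood libraries, 11 more had 1 to 3 counts in all, and 18 had a count in every library and entered the fit. Those 18 passed a filter on blood values and do not stand for the set. At an unadjusted p under 0.05, 2 of 18 were called (11.1%, against 3.11% of the 9977 genes tested), both lower with nPM (1.54% of all genes), and none passed adjustment. A log2 fold change below 0 was found for 16 of 18, against 49.6% of all genes, with a median of −0.35, against 0.00. With all 12 blood libraries 2 were called at an unadjusted p under 0.05 (against 2.2% of all genes), and without V5 2 of 20 were (against 3.41%). Without V22, a control male, 6 were called (against 2.86%), and without V21 4 were (against 4.25%). Without V17 or V1 1 was called (against 2.92% and 2.37%). No gene had exposure groups that did not overlap, against 0.110% of all genes in each direction.

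Gm24336 ranged from 1.65 to 2.41 CPM in controls (median 2.12, n = 5) and from 0.739 to 1.94 in nPM (median 1.12, n = 6). Of the nPM libraries V21 alone lay within the control range, at 1.94, and the other 5 were at or below 1.13. The log2 fold change was −0.83 (SE 0.28), with unadjusted p = 0.00743 and adjusted p = 1.00 in edgeR, and a two-sided exact permutation test gave p = 0.00866. In cortex the same gene stood at −0.04 (SE 0.08).

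Gm26448, the U17 relative in Rpsa, ranged from 2.19 to 3.47 CPM in controls (median 2.75) and from 1.17 to 3.06 in nPM (median 1.27). V21 was the highest nPM library here too, and V7 lay just under the control range at 2.11. The log2 fold change was −0.71 (SE 0.27), with unadjusted p = 0.0155 and adjusted p = 1.00 in edgeR, and the exact permutation test gave p = 0.0303. Next came Snord17 at −0.67 (SE 0.33), Snora73b at −0.49 (SE 0.27) and Gm22422 at −0.81 (SE 0.47), each with an unadjusted p over 0.05. Single libraries moved these values, Snord17 to −0.33 without V4, Snora73b to −0.79 without V21 and −0.29 without V17, and Gm22422 to −0.41 without V1. The 4 platelet markers summed to 138 to 252 CPM in controls (median 156) and to 164 to 389 CPM in nPM (median 238), with none at 0 in every library, and their part in these results was not tested.

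In lane 1 the log2 difference was −1.05 for Gm24336 and −1.06 for Gm26448, and in lane 3 it was −0.44 and −0.26. The set's share of counts was 0.00232 to 0.0038% in controls and 0.00141 to 0.00373% in nPM, with V4 (control female) and V21 (nPM male) standing above the others. Small Cajal body RNA genes lay on the same side, with 6 of 6 tested below 0 (against 49.6% of all genes) and a median of −0.34. Nop58, a core protein of C/D particles, was lower at −0.54 (SE 0.24, unadjusted p = 0.0378 in edgeR), and the 4 C/D core proteins had a median of −0.14. Blood RIN ranged from 7.5 to 9.3 and was in the fit.

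The exposure contrast in blood was set against sex in the same way, with 2 control females. For the difference, male minus female, 3 of 18 had an unadjusted p under 0.05 (16.7%, against 10.7% of all genes), all above 0 (5.01% of all genes), and none passed adjustment. The median was 0.81, against 0.09 over all genes, and it was 0.40 without V21. Without V5 the count was 6 of 20, against 6.93% of all genes. Snord17 stood at 1.94 and 3.44 CPM in the control females and at 0.640, 0.909 and 1.12 in the nPM females, and at 1.52, 1.81 and 2.34 in the control males and at 1.36, 2.22 and 2.45 in the nPM males. Only the female groups did not overlap. The difference was 1.87 (SE 0.55, unadjusted p = 0.00297 and adjusted p = 0.452 in edgeR). Gm24339 followed at 1.83 (SE 0.69) and Snora73b at 1.23 (SE 0.52; 0.81 without V21), the latter of the opposite sign to its cortex difference; the difference between the tissues was not tested.

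**Figure D5:**
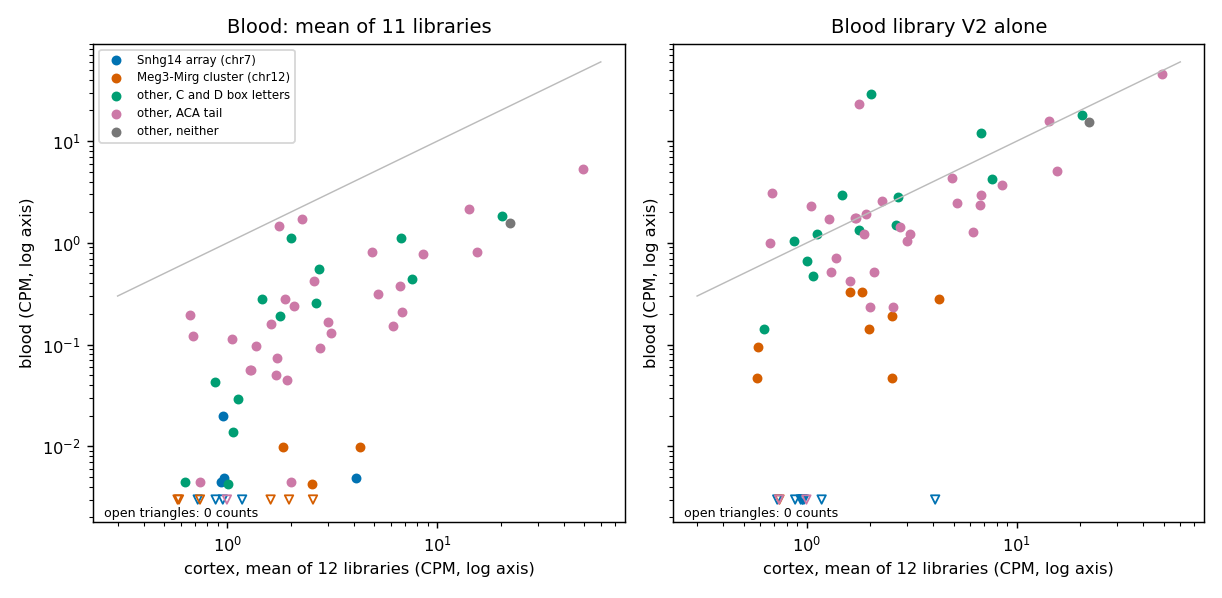
Mean level of each snoRNA gene in cortex (x axis, CPM, log scale, 12 libraries) against blood (y axis, CPM, log scale) as the mean of 11 libraries (left) and in V2 alone (right). The line marks equal levels and open triangles mark genes with 0 counts, drawn at the bottom. Points lie below the line on the left, and the Snhg14 array stays at 0 in V2.

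Between tissues, all 61 genes had a lower mean CPM in blood than in cortex, which the choice of genes by cortex counts favors. The ratio of cortex to blood had a median of 11.04 over the 39 genes with more than 3 blood counts and ran from 1.20 to 48.4. The highest ratio was that of Gm22496, which rests on 4 blood counts, all in V5. The plot of cortex and blood levels shows the imprinted clusters at the floor in blood. The Snhg14 array had 7 counts in the 11 blood libraries, 6 of them in V5, against 186 to 422 in each cortex library. The chromosome 12 cluster had 5 counts in blood, 4 of them in V5, against 399 to 634 in each cortex library. The hosts went with them: Snhg14 reached a median of 0.197 CPM in blood and 9.32 CPM in V5, against 382 CPM in cortex.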

How the data were processed

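Whole blood and cerebral cortex RNA of neonatal mice, depleted of ribosomal RNA, was sequenced on an Illumina instrument. The authors trimmed reads with Trimmomatic, aligned them to mm10 with HISAT2 and counted genes of Gencode M11 with featureCounts 1.5.0-p3, and deposited raw counts per gene, which were used here. The deposited gene table also holds an RPKM mean made by the authors, which was not used. Versions of the other tools and the strand setting of counting are not given in the sources used here. Reads in nearly identical snoRNA copies may have been lost or shared by that counting. Column purification of total RNA retains the shortest RNAs poorly, and its effect on these levels was not tested.

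Exposure was tested with edgeR 4.0.16 (R 4.3.3) quasi-likelihood F tests, two-sided, on genes counted in each library that entered the fit (minimum 1 count), with TMM scaling, sex and RIN as covariates and Benjamini-Hochberg adjustment over all genes tested. A second model added exposure-by-sex. Tests marked exact are permutations of TMM-scaled CPM over libraries. The methods leave out 1 unnamed blood sample, taken here as V2. On simulated counts with 2-fold changes the cortex fit on 20361 genes found 180 of 194 changed genes at an unadjusted p under 0.05, with 4.62% of unchanged genes called, and the blood fit on 9553 genes found 151 of 187, with 4.76%. Alternatives were RLE scaling, limma 3.58.1 voom, DESeq2 1.42.0, 2 other count filters, fits without RIN or with lane, all 12 blood libraries, and each library left out. The members and lists were chosen with earlier results of these data known. Named genes were the 10 highest per kb in cortex, the 5 with the smallest p in each of the exposure and exposure-by-sex tests of both tissues, the 5 highest per kb in each imprinted cluster, any with an adjusted p under 0.05, the pre-ribosomal RNA processing members (Snord118 and Snord13), the 2 genes on either side of the count limit, the 8 core proteins, and hosts of genes so named. Any other gene was named after its values were seen. Sequences and hosts came from Gencode M21 (GRCm38), where all 61 genes matched; 1 sequence is not reported here. P-values judge a contrast against the spread between these libraries, and litter was not in the fits.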

Additional observations from a re-analysis of the deposited data

Results flagged for a closer look

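Among 102 groups of libraries examined for a sample far from the others of its exposure and tissue, 11 held one, where chance gives about 1 in 20. The groups share libraries and genes and are not independent, so the comparison with that rate is no test. In cortex, the share of the chromosome 12 cluster in V24 (0.00122%) lay far below the other controls, of which the nearest was 0.0018%, and Gm25121 in the nPM male V15 (0.323 scaled CPM) lay below the nearest nPM library, 0.876. In blood, V4, a control female, stood high for the share of all 61 genes (0.0038%, nearest 0.0025%), of Snord symbols (0.000534%, nearest 0.000341%), of genes with C/D letters (0.00116%, nearest 0.000658%) and of genes with an ACA tail (0.00242%, nearest 0.00181%), and for Gm24357 (2.29 scaled CPM, nearest 1.02). V21, an nPM male, stood high for the share of all 61 genes (0.00373%, nearest 0.00212%), of genes with an ACA tail (0.00263%, nearest 0.00146%), for Gm24336 (1.94 scaled CPM, nearest 1.13) and for Gm25776 (1.94 scaled CPM, nearest 0.656).

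V2, the control female blood library outside the fits, was examined for signal above the other control blood libraries. The 61 genes took 0.0223% of its counts, against at most 0.0038% in the others. The 5 genes in Taf1d took 0.00579%, against at most 0.000566%, and other snoRNA genes took 0.00447%, against at most 0.000457%. The Snhg14 array had 0 counts in V2.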

How the results depend on the processing

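The study describes both tissues as taken from the same animals. No paired analysis was possible because the labels carry no replicate numbers and name no animal. For each of the 4 tests of exposure or its sex difference, the 5 snoRNAs of smallest p were refitted; none reversed its direction under the alternatives run, and other genes were not examined in this way. The alternative without V5 is the fit that leaves out that library. Counts below are of the 61 genes. In cortex with both sexes, limma voom gave 2 at an unadjusted p under 0.05, against 5.74% of all genes. A filter of 1 count in any library gave 7, against 6.23% of all genes. That filter also gave 12 in females (1 after adjustment), 17 in males (2 after adjustment) and 17 for the sex difference (3 after adjustment). The shares of all genes at the unadjusted limit were 9.5, 4.49 and 8%. After adjustment that filter called 664, 155 and 379 of 32461 genes, against 0 in the reported fits. DESeq2 gave 1 after adjustment for the sex difference and 50 genes in all. In blood that filter tested 50 of the 61. Of these, 5 were at an unadjusted p under 0.05 (against 2.58% of all genes), with 36 below 0. For the sex difference 6 were (against 6.84%), with 19 below 0. With 10 counts in every library, 6 were tested, 5 below 0 for exposure and 1 for the sex difference. With single libraries left out, counts at an unadjusted p under 0.05 ran from 0 to 8 (cortex), 1 to 9 (females), 5 to 24 (males), 4 to 20 (sex difference in cortex, with 0 to 1 after adjustment), 1 to 6 (blood) and 2 to 6 (sex difference in blood). For all genes the shares in cortex ran from 3.4 to 10.7% (both sexes), 6.9 to 13.8% (females) and 4.1 to 7.32% (males). These shares ran from 6.52 to 11.6% for the cortex sex difference, 2.37 to 4.25% in blood and 5.83 to 15.9% for the blood sex difference. The median log2 fold change of the snoRNAs then ran from −0.42 to −0.00 for the cortex sex difference and from 0.40 to 1.11 for the blood sex difference. The lowest cortex count came without V14 and the highest without V24, and the cortex count was 2 without V10, V13 or V15 and 1 without V11 or V16. In females the count was 1 without V11 and 2 without V19. For the cortex sex difference it was 5 without V12 and 4 without V20, and for blood it was 1 without V17 or V1, 4 without V21 and 6 without V22. The blood sex difference was not run without V4 or V17, which would leave 1 control female. Each of the 4 cortex genes lost its unadjusted call without V14, and AF357428 also lost it without V11. In edgeR without V11, DQ267102 (unadjusted p = 0.114) and Gm23600 (unadjusted p = 0.128) lost theirs too. Gm22205 lost its call without V10 (unadjusted p = 0.108 in edgeR). DQ267102 and Gm22205 also lost theirs under limma voom. The cause of these shifts was not tested. Genes under about 30 counts a library, such as AF357428 and Gm22784, give imprecise fold changes.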

Other observations

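In V2, 47 of the 61 genes had a higher CPM than in any other blood library. The Taf1d genes Gm24357 and Gm23455 reached 28.8 and 22.999 CPM there, above their cortex means of 2.01 and 1.77 CPM, whereas Snora73b (45.95 CPM) and Snord17 (18.1 CPM) stood near their cortex means of 49.2 and 20.3 CPM. The chromosome 12 cluster had 31 counts in V2, and its host Rian stood at 68.9 CPM, against at most 15.6 CPM in the other blood libraries.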
